A study of Mus musculus with 6 samples.

Results

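The 9 genes described here encode the mTOR kinase (Mtor), the subunits that define its complexes (Rptor and Rictor) and 6 regulators that act on it: Tsc1, Tsc2, Rheb, Flcn, Fnip1 and Akt1. They were chosen by symbol, and all 9 were found once each among the 48709 genes of the deposited expression table. The RNA came from resting iNKT cells (invariant natural killer T cells, which see lipid antigens held by CD1d) sorted from mouse spleen. By the labels, 3 samples are wild type (WT) and 3 are Gpx4 cKO, a conditional knockout of the gene for an enzyme that detoxifies lipid hydroperoxides. The design asks how loss of Gpx4 changes the iNKT transcriptome. The sources used here do not give the promoter that drives the deletion, or the strain and age of the mice.

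The table names its libraries by number, 18 to 23, and those names match none of the labels. No library was given a genotype, the genotypes were not compared, and each library is reported by its number. The 6 libraries held 903524 (library 21) to 10122187 (library 19) exon reads, and library 23 was the second shallowest with 1916746. Levels are given in CPM, exon reads scaled to 1000000 reads, and Gpx4 lay between 3.20 CPM (library 19) and 31.3 CPM (library 20). The T cell and iNKT markers were all read in every library, with Zbtb16 between 244.5 and 357 CPM and a sum over 7 markers of 3741 to 5077 CPM. B cell markers summed to between 1005 CPM (library 18) and 5290 CPM (library 23), mostly from Igkc. Erythroid markers summed to 4.34 to 289 CPM, myeloid markers to 3.48 to 6.03 CPM, NK cell markers to 1.45 to 9.65 CPM, and both CD8 genes together to at most 2.95 CPM. S100a8, Klra8 and, in library 21, the CD8 genes were at 0, and Foxp3 was at 6.63 to 12.1 CPM. Markers of cycling cells were highest in libraries 21 and 23, with sums of 670 and 901 CPM, against 256 to 407 CPM in the other 4 libraries. Early-response genes, listed as markers of handling, were Fos, Fosb, Jun, Junb, Egr1 and Dusp1. Their sums were lowest in libraries 19 and 18, at 897 and 2008 CPM, against 3306 to 3903 CPM elsewhere. Whether handling set these levels was not tested. In bulk RNA, fewer cells of a type and less RNA per cell cannot be told apart.

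mTOR is a serine/threonine kinase that joins nutrient, energy and growth factor signals to growth and metabolism. It works in complex 1, with raptor (Rptor), on the lysosome surface, and in complex 2, with rictor (Rictor), which phosphorylates AKT. AKT1 inhibits the TSC1 and TSC2 complex, TSC2 switches off the small GTPase RHEB, and RHEB bound to GTP activates complex 1. Folliculin (Flcn) and its partner FNIP1 act on the Rag GTPases that bring complex 1 to the lysosome, and FNIP1 also binds the energy sensor AMPK. In mice, loss of raptor, rictor, TSC1 or FNIP1 disturbs iNKT cell development or the balance of iNKT subsets.

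On GRCm38, Mtor lies at chr4:148448611-148557683, Rptor at chr11:119602905-119899576, Rictor at chr15:6708381-6800398 and Tsc1 at chr2:28641228-28691167, all on the plus strand. Tsc2 lies at chr17:24595937-24632629, Rheb at chr5:24802823-24842624, Flcn at chr11:59791408-59810016 and Akt1 at chr12:112653821-112674884, on the minus strand, and Fnip1 at chr11:54438199-54518235, on the plus strand. Rptor is the longest of the 9 genes, with 13471 bases of exon, and Akt1 has 4098.

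The stretches just upstream of the RefSeq start sites of 3 of these genes are shown because they carry letters that many regulators of growth and stress genes recognise. All 9 genes were found in the RefSeq promoter table (build GRCm38.p6), in 10 windows, since Akt1 has a pair of start sites. Windows of 250 bases that end at the start site were searched for the E-box CACGTG, bound by MYC and by the lysosomal regulators TFEB and TFE3, and for the full cyclic AMP response element TGACGTCA. Both motifs are palindromes, so a match lies on both strands, and neither contains the other. The E-box was in the windows of Rheb and Fnip1 and in 6.02% of all 32851 windows. The response element was in the window of Flcn and in 1.55% of all windows. The windows are chr5:24842362-24842611 on the minus strand for Rheb, chr11:54437929-54438178 on the plus strand for Fnip1 and chr11:59810040-59810289 on the minus strand for Flcn. The Rheb window lies inside the bounds given above for that gene, because its RefSeq start site does. The windows of Fnip1 and Flcn lie outside the bounds of their genes. Each window is printed in the direction of transcription, and capitals mark the motif.
Rheb: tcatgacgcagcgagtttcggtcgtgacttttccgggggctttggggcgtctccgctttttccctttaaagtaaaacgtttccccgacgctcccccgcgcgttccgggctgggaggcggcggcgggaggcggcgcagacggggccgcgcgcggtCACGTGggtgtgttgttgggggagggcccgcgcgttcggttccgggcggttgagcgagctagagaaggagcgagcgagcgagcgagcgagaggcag
Fnip1: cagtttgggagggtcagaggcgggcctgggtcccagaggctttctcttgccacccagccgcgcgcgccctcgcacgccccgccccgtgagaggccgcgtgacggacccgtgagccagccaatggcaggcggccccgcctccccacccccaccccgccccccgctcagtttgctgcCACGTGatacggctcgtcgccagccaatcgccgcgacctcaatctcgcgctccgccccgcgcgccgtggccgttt
Flcn: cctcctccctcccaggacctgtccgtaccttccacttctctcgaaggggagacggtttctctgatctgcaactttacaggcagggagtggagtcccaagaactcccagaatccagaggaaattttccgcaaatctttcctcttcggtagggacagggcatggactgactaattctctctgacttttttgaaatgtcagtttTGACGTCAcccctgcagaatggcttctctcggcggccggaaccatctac
The E-box lies 96 to 91 bases before the start site in Rheb and 75 to 70 bases before it in Fnip1, and the response element lies 49 to 42 bases before it in Flcn. A match of letters is a description and not a binding site.

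All 9 genes were read in every library, at moderate levels. The authors' RPKM values, reads per kilobase of exon scaled to depth, allow levels to be compared between genes. Rictor stood above the rest, with a median of 11.8 RPKM and a range of 10.4 to 13.1 RPKM, while the highest value of any other member was 5.52 RPKM. Akt1 followed with a median of 4.29 RPKM, then Rptor with 4.02, Fnip1 with 3.53, Tsc2 with 3.49, Mtor with 3.32, Rheb with 3.19, Tsc1 with 2.45 and Flcn with 2.31 RPKM. Below Rictor, the ranges of every pair of neighbours in this order overlapped. Rptor exceeded Fnip1 within all 6 libraries, whereas Tsc2 exceeded Mtor in 2 and Mtor exceeded Rheb in 3. The RPKM values are scaled to a total larger than the exon reads, of which exon reads made up 40.9% in library 20 and 49.1% in library 22, so RPKM sets library 20 lower against the others than CPM does.

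Exon levels of the 9 genes were compared between libraries as CPM, which does not correct for length. A chi-square test asked whether a gene's reads differed by more than counting error, with p-values adjusted by the Benjamini-Hochberg method over all 9042 genes with at least 200 reads. It called 71.6% of all tested genes and 5 of these 9: Mtor, Tsc1, Tsc2, Flcn and Fnip1. The test knows nothing of genotype, and its calls depend on the number of reads, which had a median of 1869 for the 9 genes and 1290 for all tested genes. The median fold range, the highest over the lowest CPM, was 1.55 for the 9 genes and 1.575 for all tested genes. All 9 genes stayed under a 2-fold range, as did 72.9% of all tested genes. With libraries scaled to total exon reads, Tsc2 (2.18-fold) and Flcn (2.015-fold) passed it, and 7 of the 9 stayed under it, beside 72.0% of all tested genes. The fold range also depends on the number of reads. A minimum of 1000 reads kept 8 of the 9 genes, all under 2-fold. At that minimum the median fold range over all tested genes was 1.41, and 90.2% of them stayed under 2-fold. Summed over the 9 genes, the level was lowest in library 23 (618 CPM) and highest in library 22 (704 CPM), a 1.14-fold range.

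**Figure D1:**
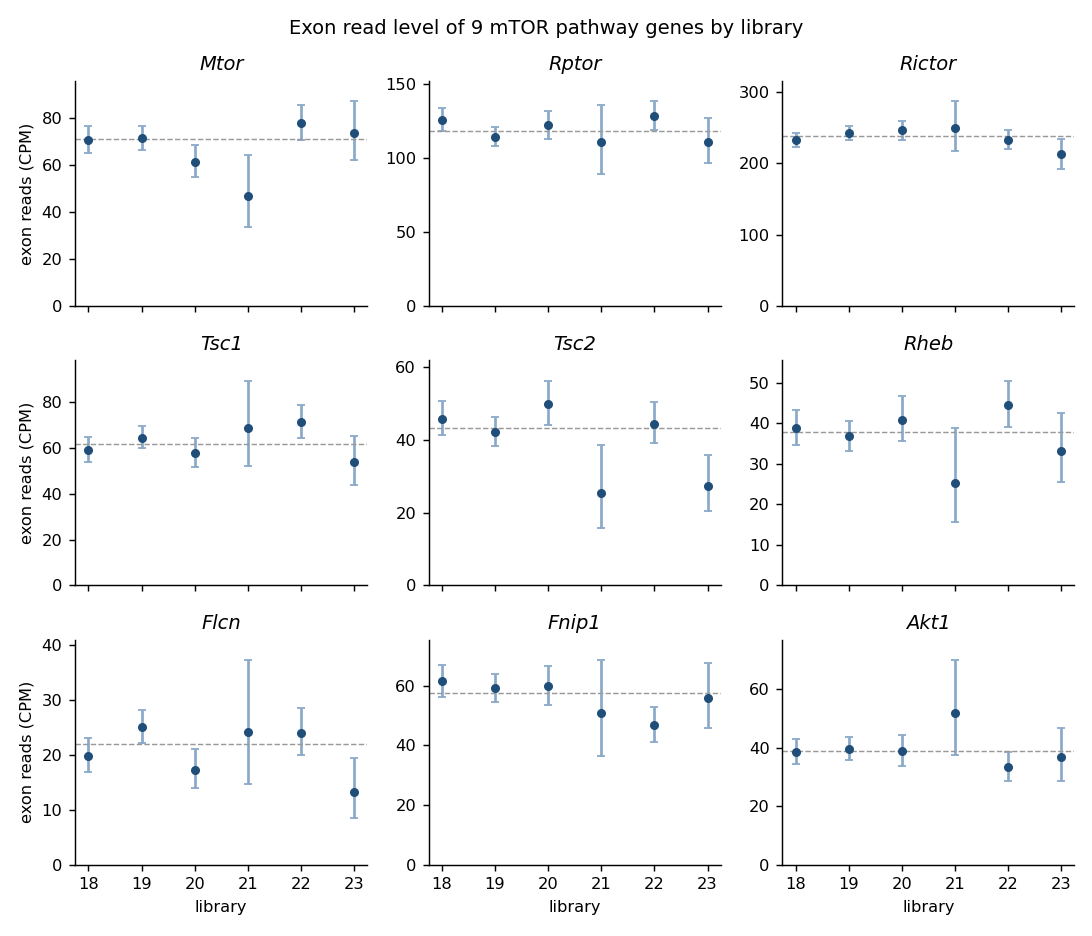
Exon reads of each of the 9 genes in CPM (y axis from 0) in libraries 18 to 23 (x axis). Points are values, bars are 95% exact Poisson intervals, which cover counting error only, and the dashed line is the median of the 6 libraries. Tsc2 is low in libraries 21 and 23, at 25.3 and 27.4 CPM, and is at 42.3 CPM or more elsewhere, and the bars are widest in library 21.

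Rptor and Rictor, the subunit genes that define the complexes, had narrower fold ranges in exon reads than Mtor. They also had more reads, 3933 and 7721 against 2284 for Mtor, and the part of read number in this difference was not tested. Rptor, the scaffold that presents substrates to complex 1, was at 126, 114, 122, 111, 128.5 and 111 CPM in libraries 18 to 23. Its 1.16-fold range (95% counting interval 0.930 to 1.45) was smaller than that of all but 3.33% of tested genes, and the chi-square test did not call it (adjusted p = 0.0813). It was called without library 20 (adjusted p = 0.04897) or library 21 (adjusted p = 0.04841). Rictor, the scaffold of complex 2, was at 232, 242, 246, 250, 233 and 212 CPM, a 1.18-fold range that was not called either (adjusted p = 0.115, chi-square test). Scaling to total exon reads did call Rictor (adjusted p = 0.00709, chi-square test). No library stood apart in either gene, and the counting intervals of the highest and lowest libraries overlapped.

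Mtor, the kinase of both complexes, was at 70.6, 71.5, 61.5, 47.1, 77.9 and 73.8 CPM in libraries 18 to 23. Libraries 20 and 21 were the low ones, and library 21 held only 39 Mtor reads (interval 33.5 to 64.3 CPM). The 1.66-fold range was called (adjusted p = 0.00655, chi-square test). Without library 21 the range was 1.27-fold and still called (adjusted p = 0.0424), and without library 20 the call was lost (adjusted p = 0.0582) at a fold range of 1.654.

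The pair of scaffold genes had similar proportions in the 6 libraries. Per exon length, Rptor made up 23.5% to 27.6% of the sum of Rptor and Rictor reads, with a median of 26.1%. The 6 exact binomial intervals, each at 95%, shared only the values from 25.8% to 25.9%. Such an overlap does not show that the share is constant, and the share was not tested. This share does not depend on how libraries are scaled.

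The TSC genes differed more. Tsc2, the GTPase-activating subunit that acts on RHEB, was at 45.8, 42.3, 50, 25.3, 44.5 and 27.4 CPM in libraries 18 to 23. The values of libraries 21 and 23 were below those of the other 4, and their counting intervals (15.7 to 38.7 CPM and 20.5 to 36.0 CPM) lay below the other 4 values, although the interval of library 21 met that of library 19 (38.45 to 46.4 CPM). The range was 1.97-fold (counting interval 1.27 to 3.24), the widest of the 9 genes, and was called (adjusted p = 0.000452, chi-square test). The call held without library 21 (adjusted p = 0.002455) and without library 23 (adjusted p = 0.0291). Libraries 21 and 23 were also the shallowest and had the highest sums of cycling markers, and the part of depth and of cycling cells in the Tsc2 values was not tested. Tsc2 overlaps Pkd1 on the opposite strand, and the sources used here do not say whether the counting used strand.

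Tsc1, which stabilises TSC2, was at 59.0, 64.4, 57.6, 68.8, 71.3 and 53.8 CPM in libraries 18 to 23. Library 22 was highest and library 23 lowest, a 1.33-fold range that was called (adjusted p = 0.0262, chi-square test) but not without library 22 (adjusted p = 0.238). Unlike Tsc2, Tsc1 was not low in library 21. Per exon length, Tsc1 took 37.0% of the pair's reads in library 20 (interval 33.2% to 40.9%) and 58.0% in library 21 (45.2% to 70.6%). The share was 49.9% in library 23 and 39.6% to 44.9% in libraries 18, 19 and 22.

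**Figure D2:**
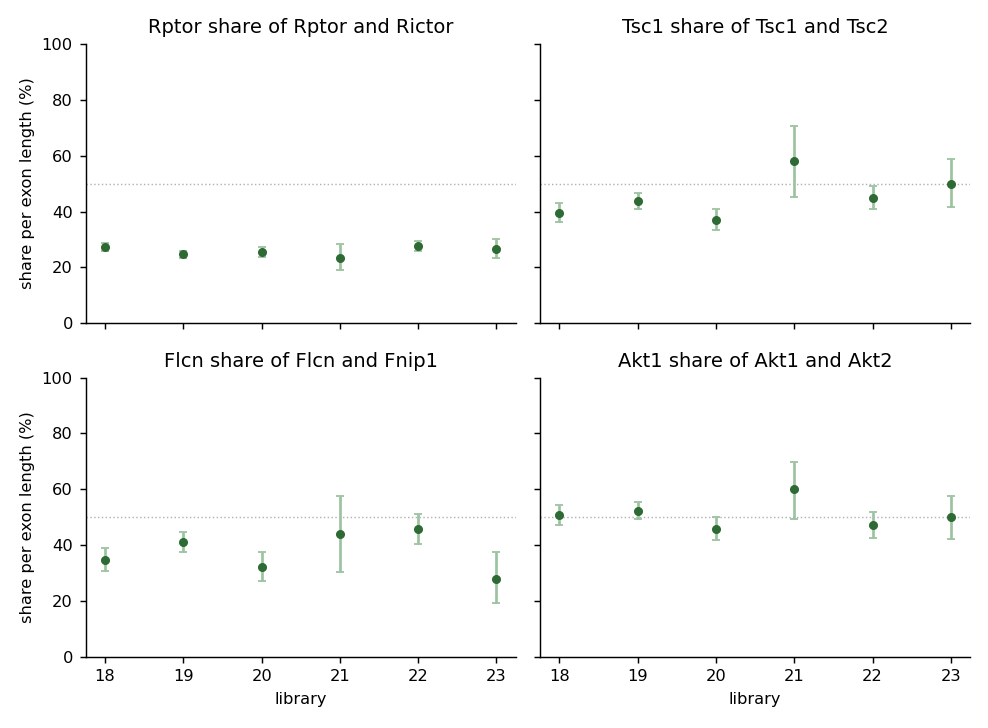
Share (%, y axis from 0 to 100) of the first gene in the reads per exon length of 4 gene pairs, in libraries 18 to 23 (x axis), with 95% exact binomial intervals as bars and a dotted line at 50%. The Rptor share stays between 23.5% and 27.6%, while the Tsc1 share runs from 37.0% in library 20 to 58.0% in library 21.

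Rheb, the GTPase that activates complex 1, was at 38.8, 36.8, 40.9, 25.3, 44.5 and 33.2 CPM in exon reads. The lowest value, in library 21, rested on 21 reads (interval 15.7 to 38.7 CPM), and the 1.76-fold range missed the threshold (adjusted p = 0.0557, chi-square test). The gene was called without library 18 (adjusted p = 0.0389) or library 20 (adjusted p = 0.0411), and the adjusted p was 0.208 without library 22. Its relative Rhebl1 was scarce, with 0 to 16 reads per library. Rheb took 75.9% of the pair's reads per exon length in library 23 and 87.8% or more in the others.

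Akt1, the kinase that relays growth factor signals to the TSC complex, was at 38.6, 39.6, 38.9, 51.9, 33.4 and 36.9 CPM. Library 21 was the highest, on 43 reads (interval 37.6 to 69.9 CPM), and the 1.55-fold range was not called (adjusted p = 0.184, chi-square test). Akt2, a second isoform gene, was expressed at a similar level. Akt1 made up 45.8% to 59.9% of the reads per exon length of Akt1 and Akt2, with a median of 50.4%. The 6 intervals shared only the values from 49.3% to 49.9%, which does not show a constant share, and this share was not tested either. The median was 4.38 RPKM for Akt2, beside 4.29 RPKM for Akt1.

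Flcn and Fnip1, whose products work as a pair, did not vary in parallel. Flcn was at 19.9, 25.04, 17.3, 24.1, 24.0 and 13.2 CPM in libraries 18 to 23. Libraries 20 and 23 were the low ones, and the 1.90-fold range (counting interval 1.26 to 2.99) was called (adjusted p = 0.00281, chi-square test) and stayed called without any 1 library, with an adjusted p of at most 0.0337. Fnip1 was at 61.4, 59.2, 59.8, 50.7, 46.7 and 55.9 CPM. Its low library was 22, where Flcn was near its highest, and the 1.32-fold range was called (adjusted p = 0.0164, chi-square test) but not without library 22 (adjusted p = 0.741). Flcn took 28.0% of the pair's reads per exon length in library 23 (interval 19.4% to 37.7%) and 45.8% in library 22 (40.5% to 51.2%). Fnip2, the other partner of folliculin, had at most 22 reads in a library and none in library 21, so that Fnip1 took at least 94.6% of the reads per exon length of Fnip1 and Fnip2.

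**Figure D3:**
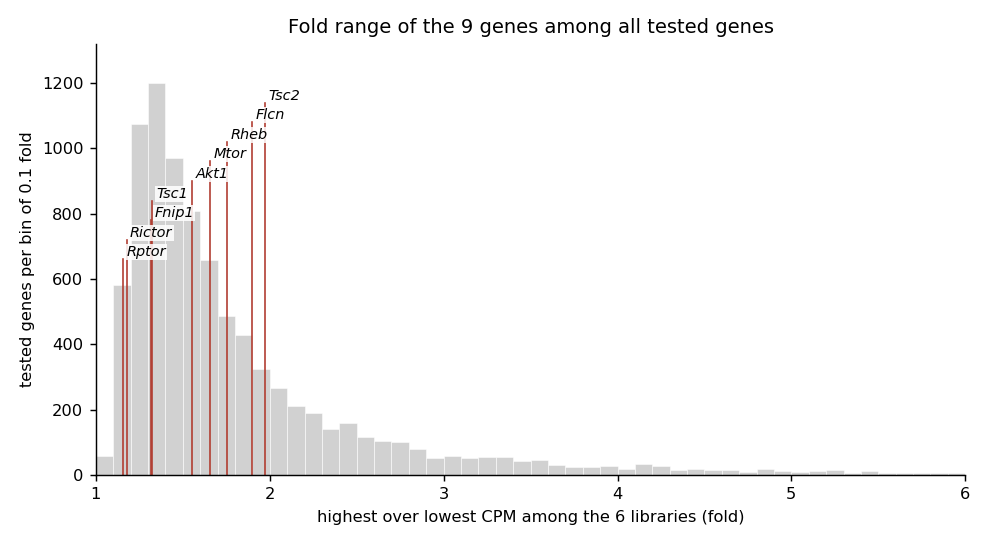
Histogram of the fold range (x axis, highest over lowest CPM among the 6 libraries, shown up to 6) of all tested genes (y axis, genes per bin of 0.1 fold), with red lines at the 9 genes; the heights of the lines carry no value. Rptor and Rictor lie at the narrow end, at 1.16-fold and 1.18-fold, and Tsc2 lies highest of the 9 genes at 1.97-fold.

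The genes whose pattern over the 6 libraries lay nearest to that of Tsc2, the member with the widest range, were Apobr, Bmt2, Phkg2, Minos1 and Tmem230. Likeness was measured as the root mean square distance of centred log2 CPM over the 6 libraries, among 6303 genes with a mean of at least 20 CPM. The distance was 0.06 for Apobr and 0.07 for Tmem230 on the log2 scale. All 5 were lowest in libraries 21 and 23, with Apobr at 36.2 and 40.6 CPM there and at 60.9 to 69.6 CPM elsewhere. With 6 libraries and this many candidates, the list is a description only.

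Reads on introns, which can come from unspliced RNA, from DNA or from other sources such as overlapping genes, gave a second readout. They are given as intron CPM, scaled to 1000000 intron reads of the same library. The chi-square test, over 8607 genes with at least 200 intron reads, called 86.2% of all tested genes and 8 of the 9, all but Mtor (adjusted p = 0.0663). Mtor was called without library 18, 22 or 23, with an adjusted p of 0.0389, 0.0436 and 0.0399. The median fold range of intron reads was 1.61 for the 9 genes and 1.92 for all tested genes. The median number of intron reads was 3171 for the 9 genes and 1017 for all tested genes.

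Rheb in library 21 stood far outside every other value. Its introns held 883, 1134, 542, 2317, 514 and 200 reads in libraries 18 to 23, which is 115, 123, 97.6, 2962, 114 and 122 intron CPM. Library 21 was 25.7 times the median of the other 5 libraries, which stayed within a 1.26-fold range. In library 21, 99.1% of the reads on Rheb lay on introns (exact binomial interval 98.6% to 99.4%), against 68.1% to 76.1% elsewhere. Exon reads of Rheb did not show the excess and were lowest in that library. Without library 21 the intron reads of Rheb still differed beyond counting error (adjusted p = 0.000506, chi-square test). Library 21 held 18 genes whose intron reads exceeded 8 times the highest other value plus 1 intron CPM, 0.209% of those tested, and Rheb was the only one of the 9 among them. Such genes were not particular to library 21. By the same rule, library 20 held 26 and the remaining libraries 1 to 3 each, with none of the 9 among them. Reads are given per gene, so where in the introns the library 21 reads of Rheb lie was not examined. One annotated small RNA gene, Gm25363, lies within Rheb and is listed with no exon read in any library.

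**Figure D4:**
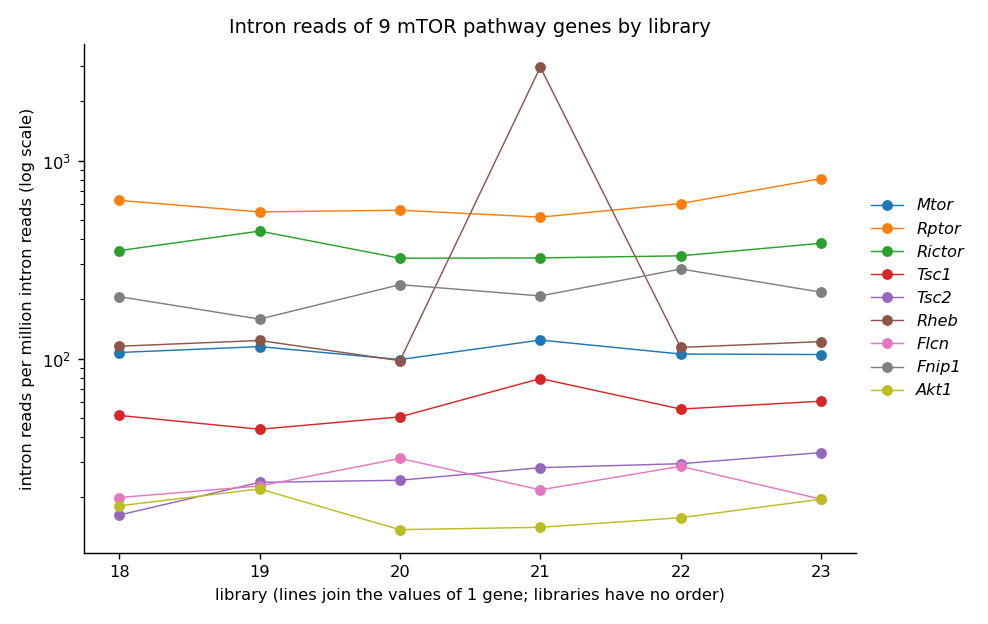
Reads on introns of the 9 genes in intron CPM, scaled to 1000000 intron reads of the library (y axis, log scale), in libraries 18 to 23 (x axis). Points are values, with lines joining the values of 1 gene. Rheb is at 2962 in library 21 and between 97.6 and 123 in the other libraries, and the other 8 genes range at most 2.07-fold.

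Among the other members, Rptor intron reads were highest in library 23, at 811 intron CPM against 518 to 629 in the others, while its exon reads there were among the lowest. Fnip1 intron reads were highest in library 22 (283 intron CPM) and lowest in library 19 (158 intron CPM), and its exon level was lowest in library 22. The share of Fnip1 reads on introns was thus 83.5% in library 22 (interval 81.5% to 85.3%) and 69.8% in library 19 (67.8% to 71.8%). Over all genes, introns took 45.5% of reads in library 22 and 47.6% in library 19, so the library totals differed in the opposite direction. Tsc2 introns were highest in library 23, at 33.5 intron CPM, and lowest in library 18, at 16.2 intron CPM. Introns took 51.2% of Tsc2 reads in library 21 (22 intron reads, interval 35.5% to 66.7%) and 51.4% in library 23 (41.5% to 61.2%). The share was 24.6% to 35.6% elsewhere, and the interval of library 21 overlapped those of libraries 19, 20 and 22. Flcn introns took 64.7% of its reads in library 20 (58.7% to 70.4%) and 44.0% in library 19 (39.5% to 48.6%). Rictor introns ranged 1.37-fold, highest in library 19 at 440 intron CPM. Tsc1 introns ranged 1.80-fold and Akt1 introns 1.61-fold, the latter on 11 to 202 reads. The intron call of Tsc2 was lost without library 18 (adjusted p = 0.0959, chi-square test), and that of Akt1 without library 19 or library 20.

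The share of reads on introns also differed between the members. Its median over libraries was highest for Rptor, at 81.8%, whose introns span 283201 bases, and lowest for Akt1, at 29.2%, whose introns span 16966 bases. Per base, intron reads were densest relative to exon reads in Rheb, at 0.456 of the exon density (median over libraries), followed by Fnip1 at 0.352, Flcn at 0.289 and Tsc1 at 0.263. These 4 exceeded the upper quartile of 0.239 over 7249 genes with both tests, whose median was 0.143. Mtor stood at 0.143, Rictor at 0.153, Rptor at 0.214, Tsc2 at 0.102 and Akt1 at 0.0995.

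The rest of the pathway was described by 6 lists with 73 genes, all present in the table. Of 59 with enough reads, 49 differed beyond counting error (83.1%, beside 71.6% of all tested genes), with a median fold range of 1.63. Of the 59, 42 stayed under a 2-fold range, and of the 17 that did not, 8 were highest and 6 were lowest in library 21. Of all 2450 tested genes at or past a 2-fold range, 28.1% were highest and 35.9% lowest in that library.

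Of the other subunits and assembly factors of the complexes, 5 of 6 tested were called, beside 71.6% of all tested genes. Mapkap1, the SIN1 subunit of complex 2, was the steadiest, from 56.9 to 61.3 CPM, and was not called (adjusted p = 0.973, chi-square test). Tti1, which helps to assemble the kinase, ranged from 40.4 to 56.9 CPM. Among the tested genes of this list, Akt1s1, the PRAS40 inhibitor of complex 1, had the widest range. It was lowest in library 23 (3.69 CPM) and highest in library 21 (27.75 CPM, 23 reads). Its range fell from 7.52-fold to 2.74-fold without library 21. Mlst8, the subunit common to both complexes, had 164 reads in all and was not tested. Without library 18 or 19 the list had 3 called of 5 tested, and without library 22 it had 3 of 6, beside 63.2%, 61.2% and 66.2% of all tested genes.

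All 14 genes of the PI3K and AKT input were tested and 12 were called, beside 71.6% of all tested genes. The median fold range of the 14 was 1.30. Pik3r1, the regulatory subunit gene of PI3K, had a median of 27.6 RPKM and ranged from 526 to 679 CPM, and Pik3cd, the leukocyte catalytic subunit gene, had a median of 24.7 RPKM and ranged from 307 to 371 CPM. Phlpp1, which encodes a phosphatase that removes an activating phosphate from AKT, was at 20.5, 21.3, 29.6, 1195, 24.7 and 28.5 CPM in libraries 18 to 23. The value in library 21 rested on 990 exon reads, and without that library the range was 1.45-fold. Phlpp1 intron reads did not show the excess, with 171 intron CPM in library 21 and 99.5 to 144 intron CPM elsewhere.

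The list of amino acid input held the widest range among the tested genes of the pathway. Rraga, which encodes the RagA GTPase that recruits complex 1 to the lysosome, was at 40.2, 32.5, 43.8, 3078, 43.8 and 24.8 CPM in libraries 18 to 23. Library 21 held 2551 of its reads, against 47 to 345 in the others, and without it the range was 1.77-fold. Its close paralog Rragb, named after its values were seen, was also highest there, at 100.2 CPM on 83 reads against 1.58 to 6.18 CPM. It had 192 reads in all, too few to be tested, and reads may be shared between the pair. Of the tested genes of the 6 lists, only Rraga and Phlpp1 were among 30 genes, 0.332% of those tested, whose exon reads in library 21 exceeded 8 times the highest other value plus 1 CPM. None of the 9 members was among the 30. Of the 21 tested genes in this list, 18 were called, beside 71.6% of all tested genes. Sesn3 and Sesn1, sestrins that restrain complex 1 when amino acids are scarce, led the list, Sesn3 at 441 to 555 CPM and Sesn1 at 166 to 332 CPM.

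**Figure D5:**
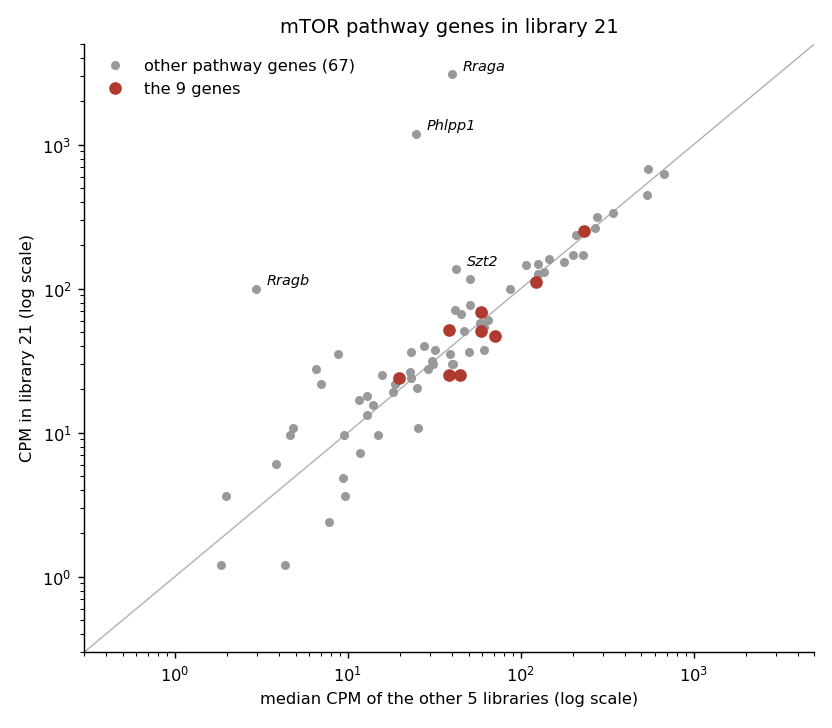
Exon level (CPM, log scales) in library 21 (y axis) against the median of the other 5 libraries (x axis) for the 9 genes (red) and 67 other pathway genes with reads on both axes (grey), with the line of equal values. Rraga (3078 CPM against 40.2) and Phlpp1 (1195 CPM against 24.7) lie far above the line, and the 9 genes lie near it.

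All 6 tested genes of AMPK and energy input were called, beside 71.6% of all tested genes. Hif1a, the hypoxia factor gene, ranged from 173 to 261 CPM and Prkaa1, a catalytic AMPK subunit gene, from 54.3 to 72.2 CPM. Ddit4, which encodes the stress-induced inhibitor REDD1, was high in libraries 18 and 19, at 36.75 and 40.8 CPM, while the other 4 did not exceed 24.1 CPM and reached down to 17.5 CPM. Libraries 18 and 19 were also the ones with the lowest sums of early-response genes, and the part of handling in the Ddit4 values was not tested. Among substrates and effectors, 8 of 12 tested were called, beside the same 71.6%. Without library 19 it was 5 of 10, beside 61.2% of all tested genes. Pdcd4, a translation inhibitor degraded after S6 kinase activity, ranged from 622 to 781 CPM. Larp1, a regulator of ribosomal protein mRNAs, ranged from 190 to 291.5 CPM, and Sgk1, a kinase activated by complex 2, from 4.75 to 21.7 CPM. The highest Sgk1 value was that of library 21, on 18 reads, and without it the range fell from 4.58-fold to 2.90-fold. Tbc1d7, the third TSC subunit, was at most 6.03 CPM and, like Rhebl1, was not tested.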

How the data were processed

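RNA extraction used the NucleoSpin RNA XS Micro kit, and library preparation QIAseq UPXome, per the labels' protocols. The submitters' processing notes name the builds GRCm38 and mm10. The sources used here do not give the aligner, counter, annotation release or use of strand or molecular identifiers. The deposited table gives, per the file headers, whole exon read counts per gene, the fraction of a gene's reads on introns, RPKM values and exon length. The deposited counts are not normalized. The deposited RPKM values were scaled by the authors. Intron reads were recovered from the deposited fraction and the exon count, for genes with at least 1 exon read (99.97% of values were resolved to within 0.5 of a read). A further 11 columns of values were not used.

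No library name matches a label, so the planned edgeR comparison of Gpx4 cKO with WT was not run. Nothing says whether samples came from separate animals. CPM used effective library sizes from TMM factors (edgeR 4.0.16, R 4.3.3), computed after filterByExpr had retained 9510 genes, with factors from 0.917 to 1.05. Chi-square tests (scipy 1.17.1) had 5 degrees of freedom, a minimum of 200 reads and a threshold of 0.05, and were tested on simulated counts. Intervals are exact, at 95%, and cover counting error only; those of a fold range do not allow for picking the extremes. A count of 0 allows 3 reads, or 0.282 CPM in library 19 and 3.62 CPM in library 21. Named genes were every member, Gpx4, the 2 most abundant and the widest-ranging tested gene of each list, and the 5 nearest patterns. A few others, such as Igkc, Akt2, Fnip2 and Mlst8, were named outside the rule, and some results are not reported here. Members and lists were chosen with earlier results of these data known. Alternatives were total reads, DESeq2 1.42.0 size factors, other read minimums and leaving out each library.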

Additional observations from a re-analysis of the deposited data

Results flagged for a closer look

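Among 27 sets of 6 library values (exon CPM, intron CPM and the intron share of the 9 genes), 3 had a highest or lowest library whose gap to the next, over the whole range, exceeded Dixon's 95% critical value for 6 values. For values of equal precision, chance flags about 1 in 20 such sets, and the sets of 1 gene are not independent. The libraries differ in depth, so that rate need not hold here. All 3 concern library 21, the shallowest. The libraries could not be given a genotype, so the 6 values mix both.

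Rheb intron reads in library 21 were 2962 intron CPM, with the next highest at 123 and the lowest at 97.6. The share of Rheb reads on introns there was 99.1%, with the next highest at 76.1% and the lowest at 68.1%. Akt1 exon reads in library 21 were 51.9 CPM, on 43 reads, with the next highest at 39.6 and the lowest at 33.4 CPM, and the test against counting error did not call Akt1.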

How the results depend on the processing

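No paired analysis was possible because the libraries carry no replicate number or genotype. Leaving out each library in turn gave 3 to 6 of the 9 genes called in exon reads, beside 61.2% to 68.35% of all tested genes, and 7 to 9 in intron reads, beside 75.04% to 83.9%. The same settings gave a median fold range in exon reads of 1.32 to 1.55 for the 9 genes, beside 1.42 to 1.52 for all tested genes. They called 38 to 45 of 56 to 59 tested other pathway genes, beside the same 61.2% to 68.35% of all tested genes. By list, 3 to 5 mTOR complex partners were called, of 5 or 6 tested, and 5 to 8 substrates and effectors, of 10 to 12 tested. The order of levels held for 5 to 9 of the 9 genes, and 5 kept their place without library 21 or without library 23, while Rictor stayed first in every case. Scaling to total exon reads called 7 of the 9 genes, with Rictor (adjusted p = 0.00709) and Rheb (adjusted p = 0.0415) added, beside 73.5% of all tested genes. DESeq2 size factors called the same 5 genes. A minimum of 1000 reads left 8 genes tested and 4 called, beside 79.3% of all tested genes. With intron reads scaled to exon library sizes, the call of Akt1 was lost (adjusted p = 0.0607). The planned edgeR and DESeq2 tests of genotype, with and without a replicate number as a block, were not run. Depth limits library 21 most, where the 9 genes held 542 reads in all.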
